A study of Mus musculus with 6 samples.

Results

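The alpha and beta tubulin isotypes are the genes whose proteins pair into the dimers from which microtubules are built. Followed here were 10 of them, the 4 alpha genes Tuba1a, Tuba1b, Tuba1c and Tuba4a and the 6 beta genes Tubb2a, Tubb2b, Tubb3, Tubb4a, Tubb5 and Tubb6, chosen by symbol, and they are 10 of the 24060 genes in the count table. They were measured by RNA-seq in retinal ganglion cells (RGCs), the neurons whose axons form the optic nerve, from C57BL/6 mice at embryonic day 18 (E18, 3 samples, replicates 1, 3 and 4) and postnatal day 5 (P5, 3 samples, replicates 6, 8 and 9). At both ages the retinas were digested with papain, macrophages were taken out with antibodies, and RGCs were captured on antibodies against CD90, the product of Thy1. The comparison asks which genes change in RGCs between an embryonic age, at which they extend axons readily, and the first days after birth. No label names a genotype, a treatment or the number of animals behind a sample, and a column name for E18 replicate 1 carries 2 further numbers, 2 and 5, and whether this sample is a pool is not stated.

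An axon is filled along its length by microtubules, and its growing tip advances as dimers of alpha and beta tubulin are added to them. Mammals carry several genes for each partner, whose proteins differ mainly in a short acidic tail at the carboxyl end, where enzymes remove and restore a final tyrosine and add chains of glutamate. Tuba1a, Tubb2b and Tubb3 are known as isotypes of young neurons, and variants in human TUBA1A, TUBB2B and TUBB3 cause malformations of the developing brain.

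The tails are shown first, because the enzymes that modify tubulin act there. The next lines give the last 60 coding bases of Tuba1c and Tuba4a, the alpha genes shown, 5′ to 3′ on the coding strand of mm10, with the stop codon in capitals.
Tuba1c (chr15:99037950-99038009, plus strand): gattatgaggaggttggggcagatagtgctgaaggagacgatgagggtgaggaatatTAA
Tuba4a (chr1:75215622-75215681, minus strand): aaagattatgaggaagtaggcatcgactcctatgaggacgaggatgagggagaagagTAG

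The codon before the stop is tat, for tyrosine, in Tuba1c, whereas it is gag, for glutamate, in Tuba4a, so the Tuba4a transcript does not encode the final tyrosine. The 5 beta genes shown end without a tyrosine codon, as the same 60 bases show, again with the stop codon in capitals.
Tubb2a (chr13:34074468-34074527, minus strand): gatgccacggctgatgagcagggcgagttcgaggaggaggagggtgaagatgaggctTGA
Tubb2b (chr13:34127471-34127530, minus strand): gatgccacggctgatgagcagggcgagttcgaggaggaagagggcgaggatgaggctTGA
Tubb3 (chr8:123421623-123421682, plus strand): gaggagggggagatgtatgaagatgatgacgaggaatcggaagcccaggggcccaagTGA
Tubb4a (chr17:57080690-57080749, minus strand): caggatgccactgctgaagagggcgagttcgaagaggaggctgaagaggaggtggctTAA
Tubb5 (chr17:35834982-35835041, minus strand): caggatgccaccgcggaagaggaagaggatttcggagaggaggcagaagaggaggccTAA

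In these 7 genes, 10 or 11 of the 19 codons before the stop encoded aspartate or glutamate. The ends of Tubb2a and Tubb2b were alike in nearly every base, and over the whole coding sequence 47 of 1338 bases differed, an identity of 96.5%. Tuba1a and Tuba1b differed at 23 of 1356 coding bases (98.3% identity), Tuba1a and Tuba1c were 97.1% identical, and Tuba1b and Tuba1c 97.9%. Tuba4a was set further apart, at 84.7% to Tuba1a.

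Such likeness bears on the counts, because a read of 100 bases can fall where 2 genes are the same. In Tubb2a and Tubb2b the longest identical run held 551 bases (coding positions 610 to 1160), and the 100 bases at its middle are shown once, since both genes have them.
Tubb2a (chr13:34074872-34074971, minus strand): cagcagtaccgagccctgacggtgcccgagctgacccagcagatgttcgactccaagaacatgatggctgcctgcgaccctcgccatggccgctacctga
The stretch of 100 bases, within 1 exon, where the pair differed most (coding positions 64 to 163) had 14 differing bases, which are in capitals.
Tubb2a (chr13:34076552-34076651, minus strand): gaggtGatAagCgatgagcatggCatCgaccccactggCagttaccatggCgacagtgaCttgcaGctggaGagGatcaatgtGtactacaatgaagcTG
Tubb2b (chr13:34129249-34129348, minus strand): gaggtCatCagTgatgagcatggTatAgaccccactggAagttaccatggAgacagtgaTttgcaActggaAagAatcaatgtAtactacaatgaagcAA

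Of all 100-base windows along the transcript, 65.8% in Tuba1a, 73.0% in Tuba1b and 53.4% in Tuba1c also occurred in another annotated gene, and within the coding part the shares were 81.5%, 90.9% and 80.4%. The largest single partners were other members, with 594 windows common to Tuba1a and Tuba1c and 799 common to Tuba1b and Tuba1c. Pseudogenes also held many, with 39.3%, 53.6% and 36.8% of the windows of Tuba1a, Tuba1b and Tuba1c. In Tubb2a 36.9% of windows and in Tubb2b 27.7% were shared, 543 of them between the pair. Tubb3, Tubb4a, Tubb5 and Tubb6 shared none. Tuba4a differed from all of these, since 46.7% of its windows were shared, none of them coding, and every one lay in Stk16, a kinase gene on the opposite strand that overlaps 1379 exon bases of Tuba4a. How reads that fit several genes were counted, and whether strand was used, is not stated. Counts of Tuba1a, Tuba1b, Tuba1c, Tubb2a, Tubb2b and Tuba4a are therefore uncertain, by an amount that the window shares do not measure. Some windows of Tuba1a and Tuba1b were shared with Gm49450, which overlaps 473 and 426 of their exon bases on the same strand. Gm49450 is not in the count table.

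**Figure D1:**
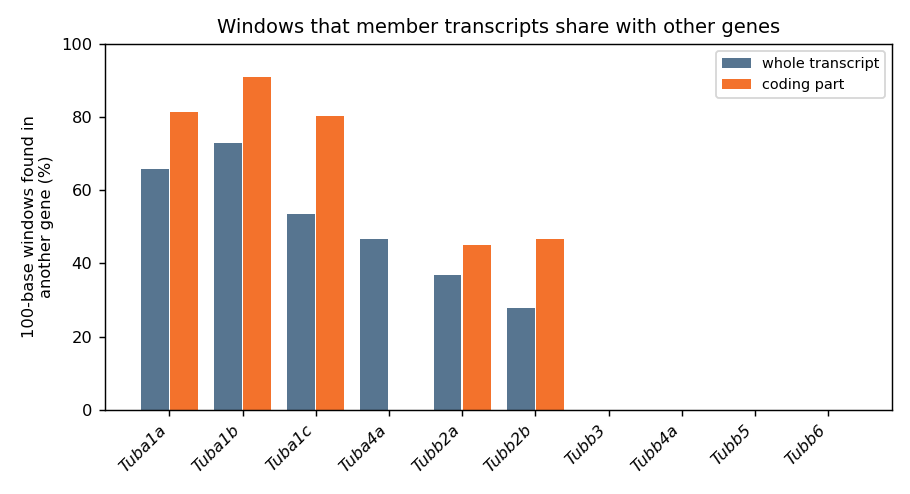
Share of 100-base windows of each member transcript that are also found in another annotated gene (percent), for the whole transcript and for its coding part. The 3 Tuba1 genes share 53.4% to 73.0% of windows, Tubb2a and Tubb2b 36.9% and 27.7%, and the last 4 genes none.

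The samples held 81213639 to 114512853 counts, and the 10 tubulin genes took 1.98% to 2.17% of them at E18 and 1.61% to 1.70% at P5. RGC markers were abundant at both ages, summing to 7565 to 8876 CPM (counts scaled to 1000000 per sample after normalization) at E18 and 8158 to 9310 at P5, with Rbpms at 276 to 320 CPM against 291 to 329. Single RGC markers did change, 5 of 14 being higher and 5 lower at E18, and the sum was lowest in replicate 1 and highest in replicate 4 at E18 and lowest in replicate 8 and highest in replicate 9 at P5. Markers of other cells were uneven among the E18 samples. Those of dividing cells summed to 320 CPM in replicate 1, 124 in replicate 3 and 73.9 in replicate 4, against 57.0 to 71.8 at P5, and 9 of 12 were higher at E18 by the test described after this paragraph. Retinal progenitor markers (948.5, 876 and 647 CPM against 514 to 649; 6 of 10 higher), amacrine markers (97.7, 200 and 14.8 against 19.3 to 28.8; 4 of 7 higher) and endothelial and pericyte markers (71.9, 64.0 and 15.5 against 11.0 to 15.6; 1 of 7 higher, 2 lower) showed the same 2 samples standing apart, with none of these genes at 0 in all samples of an age. Bipolar and photoreceptor markers were the reverse, at 53.1, 48.8 and 51.2 CPM in the E18 samples and 86.9, 71.1 and 99.99 CPM in P5 replicates 6, 8 and 9, with 2 of 8 higher and 3 lower at E18. Müller glia and astrocyte markers summed to 348.5 to 372 CPM against 316 to 320 (1 of 7 higher, 1 lower), and microglia and macrophage markers to at most 2.85 CPM. The test of single genes was therefore also computed without both E18 replicates 1 and 3. The pools, shares and ratios given further below were not. In bulk samples of this kind, fewer cells of a type and less RNA per cell cannot be told apart.

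Of the 10 tubulin genes, 4 were higher at E18 (Tuba1a, Tubb2b, Tubb3 and Tubb5), 2 were lower at E18 (Tuba4a and Tubb2a) and 4 did not pass the test. A gene passed at an adjusted p under 0.05 in edgeR's quasi-likelihood test with Benjamini-Hochberg adjustment over the 16449 genes tested, among which were all 10 tubulins. In the same comparison 43.4% of all genes tested passed, 20.8% higher and 22.5% lower at E18, so 6 of 10 is to be read against a transcriptome in which passing was common. The values of the ages did not overlap in 7 of the 10 tubulins, against 56.1% of all genes tested. The median log2 fold change of E18 over P5 was 0.30 over the tubulins and 0.0047 over all genes.

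**Figure D2:**
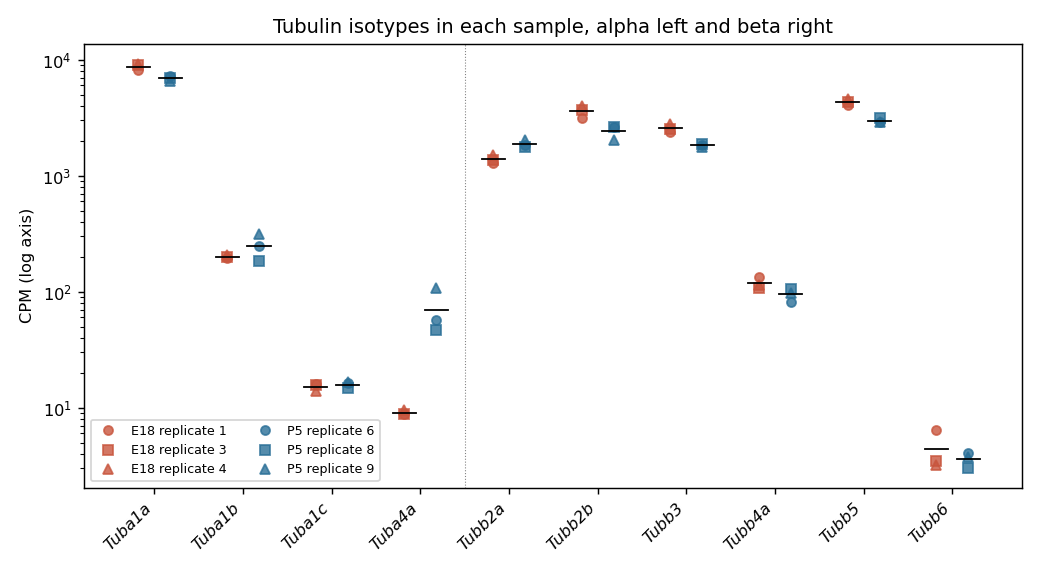
CPM (log axis) of each tubulin isotype in every sample, E18 in red and P5 in blue with 1 symbol per replicate, and a bar at the mean of each age. Tuba4a is the member whose ages lie furthest apart (8.78 to 9.51 CPM at E18, 46.4 to 108 at P5), and P5 replicate 9 is its highest sample.

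Among the alpha genes, Tuba1a (chr15:98949837-98953703, minus strand), the principal alpha tubulin of young neurons, was by far the most abundant. It was at 8074, 8928 and 9155 CPM in E18 replicates 1, 3 and 4 and at 7269, 6924 and 6613 CPM in P5 replicates 6, 8 and 9. Every E18 sample was above every P5 sample, and the change was modest, a log2 fold change of 0.33 (SE 0.080), or 1.26-fold higher at E18 (adjusted p = 0.0111). Without both E18 replicates 1 and 3 the fold change was 0.41 and the adjusted p 0.0577, so this call was lost with E18 replicate 4 as the lone E18 sample.

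Tuba4a (chr1:75214228-75219865, minus strand), the alpha gene that lacks the encoded tyrosine, moved the other way and by much more than any other member. It was at 8.78, 8.85 and 9.51 CPM in the 3 E18 samples, which were nearly the same, and at 56.5, 46.4 and 108 CPM in P5 replicates 6, 8 and 9. The lowest P5 sample was well above the highest E18 sample, while the P5 samples themselves spread widely, with replicate 9 highest. Tuba4a was 7.76-fold higher at P5 (log2 fold change of E18 over P5 −2.96, SE 0.29, adjusted p = 0.00028). Leaving out P5 replicate 9 gave −2.51 (adjusted p = 0.00009), and leaving out both E18 replicates 1 and 3 gave −2.87 (adjusted p = 0.00396). Stk16, whose exons overlap those of Tuba4a on the other strand, was at 53.4, 56.6 and 59.2 CPM at E18 and 51.7, 41.4 and 44.7 CPM at P5. Stk16 thus had its higher values at E18 (log2 fold change 0.30, adjusted p = 0.0506), opposite to Tuba4a.

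Tuba1b (chr15:98931425-98934565, minus strand), an alpha gene used in most tissues and by dividing cells, was at 194, 197 and 206 CPM at E18 and at 249, 185 and 312 CPM at P5. The ages overlapped, because P5 replicate 8 was below all E18 samples while the other two P5 samples were above them. The log2 fold change was −0.32 (SE 0.165, adjusted p = 0.145), and it passed without P5 replicate 8 (−0.51, adjusted p = 0.00607) and was −0.13 without P5 replicate 9 (adjusted p = 0.474). Tuba1c (chr15:99029891-99038110, plus strand) was at 16.0, 15.8 and 13.8 CPM against 16.2, 14.7 and 16.6 CPM. These values overlapped (log2 fold change −0.06, SE 0.115, adjusted p = 0.709), and most of the Tuba1c windows are shared with genes of far higher count. Gm6682, a pseudogene in the table that shares windows with Tuba1a and Tuba1b, held 2.52 to 3.18 CPM at either age.

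Among the beta genes, Tubb2b (chr13:34126748-34130466, minus strand), which is needed for neurons to migrate in the developing cortex, was at 3153, 3655 and 3980 CPM at E18 and 2642, 2652 and 2045 CPM at P5. All E18 values exceeded all P5 values, with P5 replicate 9 the lowest of the 6 samples. It was 1.47-fold higher at E18 (log2 fold change 0.56, SE 0.127, adjusted p = 0.00839).

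Tubb3 (chr8:123411424-123422015, plus strand), the neuron-specific beta tubulin that is widely used as a marker of RGCs, was at 2389, 2529 and 2778 CPM at E18 and at 1841, 1875 and 1777 CPM at P5. The P5 samples lay close together and below each E18 sample. It was 1.40-fold higher at E18 (log2 fold change 0.49, SE 0.083, adjusted p = 0.00247).

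Tubb5 (chr17:35833921-35838306, minus strand), a beta gene expressed in most cell types and in neuronal precursors, had the smallest adjusted p among the genes higher at E18. It was at 4074, 4356 and 4568 CPM at E18 and at 2889, 3143 and 2883 CPM at P5. The ages were separated by a wide gap, and Tubb5 was 1.46-fold higher at E18 (log2 fold change 0.54, SE 0.081, adjusted p = 0.00135).

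Tubb2a (chr13:34074274-34078007, minus strand), the near copy of Tubb2b, went in the opposite direction. It was at 1295, 1360 and 1499 CPM at E18 and at 1850, 1760 and 2050 CPM at P5. Here each P5 sample was above each E18 sample, and Tubb2a was 1.36-fold higher at P5 (log2 fold change −0.45, SE 0.093, adjusted p = 0.00585). Without both E18 replicates 1 and 3 it was −0.32 with an adjusted p of 0.216, and E18 replicate 4 was the E18 sample nearest to P5. The pseudogene Tubb2a-ps2 held 11.5 to 13.4 CPM at E18 and 7.92 to 12.1 CPM at P5 (adjusted p = 0.176).

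Within E18, 7 of the 10 tubulins were lowest in replicate 1, intermediate in replicate 3 and highest in replicate 4, namely Tuba1a, Tubb2b, Tubb3 and Tubb5, which were higher at E18, Tuba4a and Tubb2a, which were lower, and Tuba1b. The summed RGC markers had that order too. How many of all genes tested had it was not counted, so the order is not shown to be particular to tubulins. The summed dividing cell and retinal progenitor markers had the reverse order, highest in replicate 1 and lowest in replicate 4. Within P5, Tuba1b, Tuba4a and Tubb2a were lowest in replicate 8 and highest in replicate 9, as were the summed bipolar and photoreceptor markers and the summed RGC markers. The part of these differences in cell markers in the tubulin values was not tested. Computed with replicate 4 as the only E18 sample, the log2 fold changes were 0.71 for Tubb2b (adjusted p = 0.0214), 0.61 for Tubb3 (adjusted p = 0.0189) and 0.63 for Tubb5 (adjusted p = 0.0147), in a fit that assumes this lone sample varies as the P5 samples do.

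Tubb4a and Tubb6 did not pass. Tubb4a (chr17:57080066-57087782, minus strand), a beta tubulin of neurons and of myelinating cells, was at 135, 108 and 115 CPM at E18 and 81.2, 106 and 96.9 CPM at P5. The lowest E18 and the highest P5 sample were almost level, and the log2 fold change of 0.33 (SE 0.127) had an adjusted p of 0.0626. Without P5 replicate 8 the value was past the threshold (adjusted p = 0.0332), as it was in DESeq2 (adjusted p = 0.0479) and edgeR's exact test (adjusted p = 0.0436). Oligodendrocyte markers, which would accompany myelinating cells, summed to 89.9 to 90.5 CPM at E18 and 52.1 to 71.5 CPM at P5. Of the 5 tested, 1 was higher and 1 lower at E18, and their part in Tubb4a was not tested. Tubb6 (chr18:67390717-67402749, plus strand) is low in neurons, and it was at 6.46, 3.48 and 3.18 CPM at E18 and 4.04, 3.05 and 3.72 CPM at P5, or 288 to 536 counts per sample. Only E18 replicate 1 stood above the others. That sample had the highest sums of dividing cell, retinal progenitor and endothelial and pericyte markers, and their part in Tubb6 was not tested. The log2 fold change was 0.28 (SE 0.286, adjusted p = 0.457), and without E18 replicate 1 it was −0.11 (adjusted p = 0.743).

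Levels of different genes were compared as CPM per kilobase of the union of a gene's exons. At E18 the order of the mean levels was Tuba1a (4836), Tubb2b (1568), Tubb3 (1373), Tubb5 (1302), Tubb2a (860), Tuba1b (106), Tubb4a (53.5), Tuba1c (6.65), Tuba4a (2.44) and Tubb6 (1.80). The ranges of neighbours over the E18 samples overlapped for Tubb2b and Tubb3, for Tubb3 and Tubb5 and for Tuba4a and Tubb6. Within every E18 sample, though, Tubb2b was above Tubb3 and Tubb3 above Tubb5. Tuba4a was below Tubb6 in E18 replicate 1 (2.37 against 2.65) and above it in E18 replicates 3 and 4. At P5 the order was Tuba1a (3847), Tubb2a (1172), Tubb2b (1066), Tubb3 (980), Tubb5 (893), Tuba1b (133), Tubb4a (42.6), Tuba4a (19.0), Tuba1c (6.92) and Tubb6 (1.48), with overlap between Tubb2a and Tubb2b and between Tubb2b and Tubb3. Tubb2a was below Tubb5 in every E18 sample and above it in every P5 sample. The place of Tubb5 depended on the length used, since per kilobase of the longest transcript its mean was 1636 at E18, close to Tubb2b (1648) and above Tubb3 (1373), and in P5 replicate 8 it was above Tubb2a (1187 against 1093). Tuba4a was below Tuba1c in every E18 sample and above it in every P5 sample. A single gene, Tuba1a, was 3.09 times the next level at E18 and 3.28 times at P5 on full exon length, which makes no allowance for shared windows.

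The pools of alpha and beta tubulin were each the sum of their members' CPM per kilobase. The beta pool thus leaves out Tubb4b, a beta gene not among the members. Its mean was 132.6 CPM at E18 and 206 CPM at P5, against 119 and 94.8 CPM for the member Tubb4a. Both were lower in every P5 sample than in any E18 sample. Their ratio was near 1 throughout per kilobase of exon. This level rests on the lengths used, and 65.8% of the windows of Tuba1a, which dominates the alpha pool, are shared. The level of the ratio with unshared windows as length is not given here. The alpha pool was 4591, 5066 and 5196 at E18 and 4187, 3958 and 3870 at P5, a difference of 0.30 on the log2 scale. The beta pool was 4745, 5151 and 5579 at E18 and 4193, 4246 and 4027 at P5, a difference of 0.31. In both, all E18 samples were above all P5 samples (exact permutation test, two-sided, p = 0.1, the smallest that 3 against 3 samples allow). The beta to alpha ratio was 1.03, 1.02 and 1.07 at E18 and 1.00, 1.07 and 1.04 at P5 (exact permutation p = 0.9), with a difference of 0.0045 on the log2 scale whose sign turned when E18 replicate 4 (−0.0178) or P5 replicate 6 (−0.0213) was left out.

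Within the alpha pool, Tuba1a made up 97.7% ± 0.111 (SD, n = 3) at E18 and 96.0% ± 1.15 at P5. Tuba1b took 2.15% ± 0.095 and 3.32% ± 0.907, Tuba1c 0.135% ± 0.0181 and 0.173% ± 0.0128, and Tuba4a 0.0494% ± 0.0022 and 0.478% ± 0.238. The share of Tuba4a thus remained below 1% at P5 despite its large fold change. Without P5 replicate 9 the differences between the ages were smaller, 1.009 in place of 1.64 percentage points for Tuba1a and −0.687 in place of −1.17 for Tuba1b. Within the beta pool the composition moved more. Tubb2a made up 17.0%, 16.4% and 16.7% in the E18 samples and 27.4%, 25.7% and 31.6% in the P5 samples. Tubb2b went from 30.3% ± 1.19 to 25.6% ± 3.01, Tubb3 from 26.6% ± 0.335 to 23.6% ± 0.070 and Tubb5 from 25.3% ± 0.611 to 21.5% ± 0.770. For these 4 beta genes and the 4 alpha genes the ages did not overlap (exact permutation p = 0.1 each, the smallest possible). After Benjamini-Hochberg adjustment over the 10 shares each p was 0.125. Shares of 1 pool are tied to each other, and Tuba1b and Tuba1c overlapped between the ages in CPM though not in share. The Tubb2b difference was 4.72 points and 2.99 without P5 replicate 9 (exact permutation p = 0.2). Tubb4a, at 1.05% ± 0.199 and 1.02% ± 0.136, and Tubb6, at 0.0357% and 0.0356%, overlapped (exact permutation p = 0.9 and 1).

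**Figure D3:**
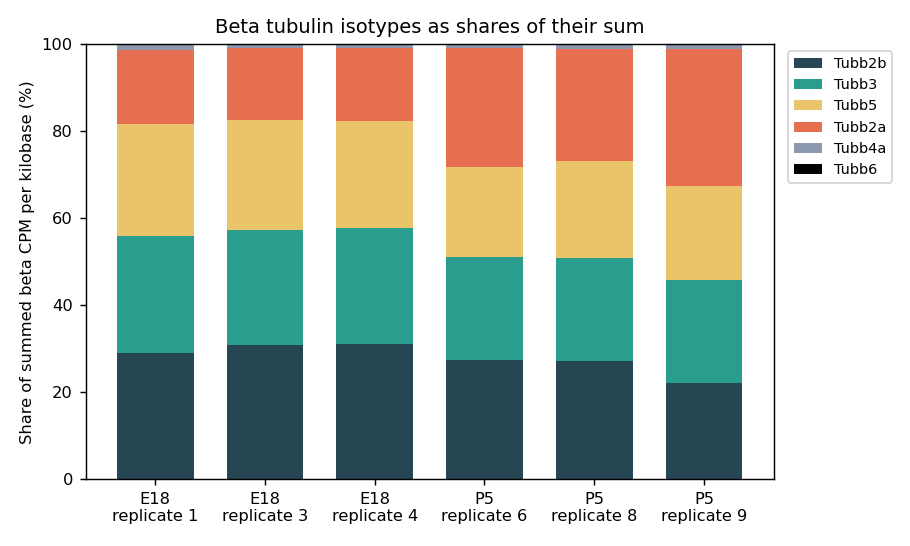
Share of each beta isotype in the summed beta CPM per kilobase (percent), 1 stacked bar per sample. The Tubb2a share lies between 16.4% and 17.0% at E18 and between 25.7% and 31.6% at P5, and the shares of Tubb2b, Tubb3 and Tubb5 are all smaller at P5; Tubb6 is too small to see.

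The ratio of Tubb2a to Tubb2b, per kilobase, was 0.585, 0.530 and 0.537 at E18 and 0.998, 0.945 and 1.43 at P5. It was about even in P5 replicates 6 and 8 and tilted to Tubb2a in replicate 9, and at E18 it was near 0.55 throughout (difference −1.01 on the log2 scale, exact permutation p = 0.1). Without P5 replicate 9 the difference was −0.82. Summed, the pair held 47.0% ± 0.980 of the beta pool at E18 and 53.9% ± 0.961 at P5, a larger share at P5 although Tubb2b alone had a smaller one. Reads from the 543 windows common to both genes could be given to either or counted for neither, and their part in the ratio was not tested.

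Around the isotypes, 73 listed genes that make, fold, modify, sever or nucleate tubulin were examined, of which 66 were tested. Of these, 12 were higher and 9 lower at E18 and 45 did not pass, with a median log2 fold change of 0.07. That is 21 of 66, beside 43.4% of all genes. The count higher at E18 was 7 when E18 replicate 1, 3 or 4 or P5 replicate 6 or 9 was left out, and the count lower was 3 without E18 replicate 1 or 3 and 4 without P5 replicate 9. Without both E18 replicates 1 and 3 the counts were 1 and 0, and of the pathway genes named here Vash2 alone kept its call.

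Of the other tubulin genes, 1 of 6 tested passed. Tubb4b, a beta tubulin of most tissues and of cilia, was at 131, 128.5 and 138 CPM at E18 and 186, 169 and 263 CPM at P5. The P5 samples were all above the E18 samples, with replicate 9 again highest, and the log2 fold change was −0.64 (SE 0.155, adjusted p = 0.0113). The gene was not on the member list, and with Tuba4a and Tubb2a it was among the tubulins higher at P5. Tuba3a, Tuba3b, Tubal3 and Tubb1, isotypes of testis, epithelia and platelets, were too low to be tested.

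Genes for folding new tubulin showed no common direction. Of the 7 tubulin folding cofactors tested, 1 was higher at E18 (Tbcc, cofactor C, log2 fold change 0.38, adjusted p = 0.0388) and 3 were lower, led by Tbcel, a cofactor E-like protein (−0.42, adjusted p = 0.0215). These 4 calls became 0 without E18 replicate 1, 1 without E18 replicate 3, E18 replicate 4 or P5 replicate 9, and 2 without P5 replicate 6. The call of Tbcc was lost without E18 replicate 1 (adjusted p = 0.107) or 4 (0.146) and without P5 replicate 6 (0.123) or 8 (0.0612), and that of Tbcel without E18 replicate 1 (0.0794), 3 (0.0713) or 4 (0.0546) or P5 replicate 9 (0.0654). Of the 8 subunits of the chaperonin CCT, which folds tubulin and actin, only Cct4 passed (0.36, adjusted p = 0.00894), and of the 6 subunits of prefoldin, which hands chains to CCT, only Pfdn2 (0.42, adjusted p = 0.0247). Pfdn2 failed without any 1 of E18 replicates 1 (0.0723), 3 (0.108) and 4 (0.0501) and P5 replicates 6 (0.051) and 9 (0.0685). Without P5 replicate 8, 3 CCT and 2 prefoldin subunits passed.

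All 4 genes of the enzymes that act on the final tyrosine of alpha tubulin passed, 3 higher and 1 lower at E18, beside 43.4% of all genes. Only 2 of the 4 passed without E18 replicate 1 or without E18 replicate 3, and 1 without both. Vash2, a carboxypeptidase that removes the tyrosine, was at 140.5, 165 and 177 CPM at E18 and 95.2, 120 and 67.7 CPM at P5 (log2 fold change 0.77, SE 0.191, adjusted p = 0.0119). Its relative Vash1 (0.39, adjusted p = 0.0473) and their partner Svbp, listed in the table as Ccdc23 (0.60, adjusted p = 0.00542), were also higher at E18, and these last 2 genes are named because their values were seen. Vash1 did not pass without E18 replicate 1 (adjusted p = 0.0772), 3 (0.104) or 4 (0.119) or P5 replicate 6 (0.157) or 9 (0.139). Ttl, the ligase that puts the tyrosine back, was at 79.1, 82.6 and 96.2 CPM at E18 and 106, 127 and 114 CPM at P5. Ttl was thus lower at E18 (−0.43, SE 0.110, adjusted p = 0.0141), although not past the threshold without E18 replicate 1 (adjusted p = 0.0639) or 3 (adjusted p = 0.0651).

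Among enzymes that add glutamate or glycine to the tails, 1 of 10 tested was higher (Ttll5, a glutamylase, 0.58, adjusted p = 0.00421) and 1 lower (Ttll11, another glutamylase, −0.74, adjusted p = 0.0106), and 5 of the 10 passed without P5 replicate 8. Among those that take glutamate off, 2 of 6 were higher and 2 lower, and these 4 calls became 2 without E18 replicate 1, 3 or 4 or P5 replicate 9. Agbl3 was lower at E18 (−0.88, adjusted p = 0.00159), while Agbl2, higher at E18 (1.27, adjusted p = 0.0322), was measured at under 0.25 CPM in every sample and passed in only 3 of 11 alternative computations. Its adjusted p rose to 0.0954, 0.108 and 0.0635 without E18 replicates 1, 3 and 4 and to 0.079 and 0.0646 without P5 replicates 6 and 9.

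Atat1, which acetylates alpha tubulin inside the microtubule, was the 1 of 3 acetylation genes that passed, at 82.5, 70.5 and 81.9 CPM at E18 and 51.9, 54.0 and 40.5 CPM at P5. Its samples were well apart between the ages (log2 fold change 0.68, SE 0.128, adjusted p = 0.00369). Of 7 severing genes, Fign was higher at E18 (0.46, adjusted p = 0.0289) and Katnal1 lower (−0.45, adjusted p = 0.0286). Both lost their calls without E18 replicates 1 (0.107 and 0.0873) and 3 (0.116 and 0.103) and P5 replicates 6 (0.0684 and 0.0914) and 9 (0.0842 and 0.0877), as adjusted p-values of Fign and Katnal1 in turn. None of the 8 genes of the gamma-tubulin ring complex, which nucleates microtubules, passed in edgeR's quasi-likelihood test, with 1 at an unadjusted p under 0.05. DESeq2 called 1 of them, and the quasi-likelihood test called 1 after upper-quartile normalization and 2 without P5 replicate 8. Ttc5, which recognises nascent tubulin chains and starts the decay of their mRNA when free tubulin is in excess, was at 97.2, 106 and 106 CPM at E18 and 89.0, 79.8 and 76.9 CPM at P5. It was higher at E18 (0.33, SE 0.093, adjusted p = 0.0202), but not without E18 replicate 3 (adjusted p = 0.0799), E18 replicate 4 (0.0689) or P5 replicate 9 (0.0582).

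**Figure D4:**
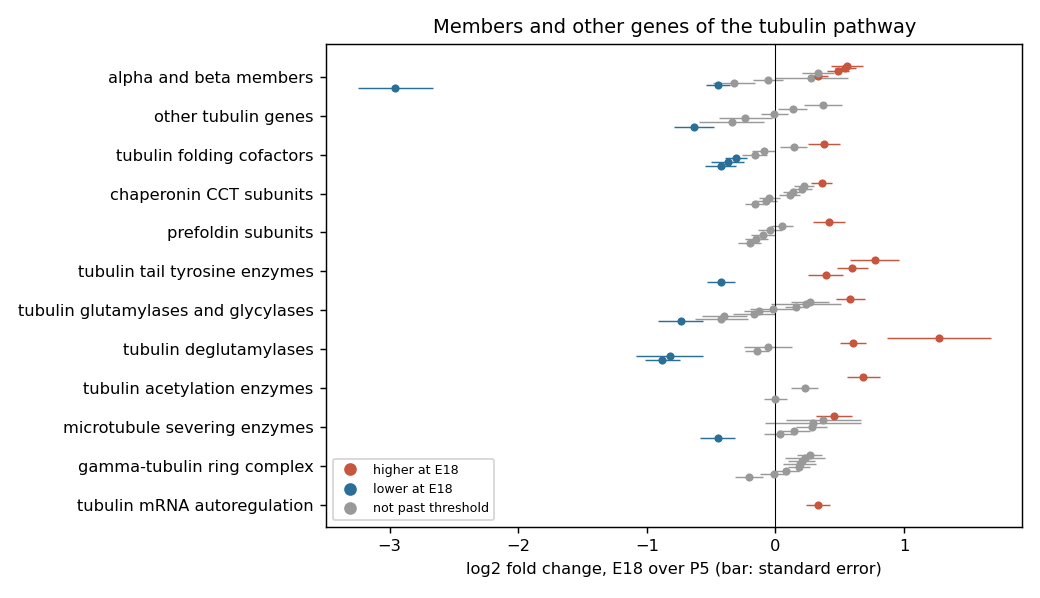
Log2 fold change of E18 over P5 with its standard error for each tested tubulin isotype and for each tested gene of the 11 pathway lists, in red where higher at E18, in blue where lower and in grey where not past the threshold. Tuba4a, at −2.96, lies furthest from 0, and every list but the single gene Ttc5 and the tail tyrosine enzymes holds genes that did not pass.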

How the data were processed

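The authors prepared libraries from immunopanned RGCs with an Illumina TrueSeq and RiboZero Gold protocol, although the labels name polyA RNA, and sequenced paired ends of 100 bases. They aligned reads to mm10 with STAR 2.4.0 and deposited raw counts per RefSeq gene from HT-seq 0.6.1, with no strand setting or rule for multi-mapped reads given in the sources used here. The other deposited columns were not used. They are normalized counts, a signal the authors scaled for library size, the authors' log2 fold changes between the ages and a deposited score that ranks genes. The deposited p-values and false discovery rates (FDR) come from the authors' run of EdgeR, in a version and with a test not given in the sources used here.

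For the comparison, TMM normalization and the quasi-likelihood test of edgeR 4.0.16 (R 4.3.3) were applied to the raw counts. Its filterByExpr kept 16449 of 24060 genes, p-values were adjusted after Benjamini and Hochberg across all of these, and 0.05 was the threshold. The standard error of a log2 fold change was its size divided by the square root of the F statistic. The fit was also run on simulated counts drawn from the means and dispersions of these data, with results not given here. CPM used TMM library sizes, and CPM per kilobase divided them by the union of exons in GENCODE M21 (mm10), whose genes were matched by symbol and gave positions, windows of 100 bases and sequences. Svbp was matched as Ccdc23. Sequence identity was computed on coding sequences, and protein sequences were not used here, and some sequences are not reported here. Pools and shares were compared by a two-sided exact permutation test, which has 20 arrangements and a smallest p of 0.1.

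Members and gene lists were chosen with earlier results of these data known. Named were the 10 members, the called gene with the largest rise and fall in each pathway list with every gene of a list of 1 or 2, the 3 genes most like the highest alpha and beta member, and Rbpms, Thy1 and Mki67 among markers. Stk16, Gm6682, Tubb2a-ps2, Vash1 and Ccdc23 were added after values or annotation were seen. Alternatives were DESeq2 1.42.0, upper-quartile normalization, no filter, edgeR's exact test, other lengths and library sizes, and leaving out samples. Nothing says that replicates are separate animals, so p-values measure the spread between these samples. Over all genes together, samples of 1 age differed by 30.5 to 141 chi-square units per degree of freedom, far over sampling noise. This sum over genes does not show what sets the precision of a gene with few counts, such as Agbl2 (5 to 26 per sample).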

Additional observations from a re-analysis of the deposited data

How the results depend on the processing

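No paired analysis was possible because the ages share no replicate numbers. Of 110 alternative values of the 10 tubulin log2 fold changes, 104 kept their side of the threshold, 2 lost a call and 4 gained 1, and none that passed changed sign. The losses were Tuba1a and Tubb2a without both E18 replicates 1 and 3, an alternative chosen after seeing the data that leaves 1 E18 sample. Under it the members lower at E18 numbered 1, the genes called in all 1633 and the pathway genes 1 higher and 0 lower. Leaving out 1 sample gave 4 to 5 members higher and 2 to 3 lower, 4575 to 8796 genes called (4575 without E18 replicate 3, against 7135), and 7 to 17 pathway genes higher and 3 to 13 lower.

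Of 128 alternative values of pools, shares and ratios, 9 changed sign. Some of the 128 could not change, since library size cancels in every share and ratio. Length likewise cancels in the age difference of the Tubb2a to Tubb2b ratio. The values that changed sign were all near 0 except the Tubb2b share. That share difference became −6.85 points, the difference of the pair, when Tubb2a and Tubb2b were summed as 1. The beta to alpha difference was −0.0341 with unshared windows as length, also chosen after seeing the data, and −0.0213 to 0.0284 leaving out 1 sample. The Tubb4a share difference ran from −0.092 to 0.0833 points and that of Tubb6 from −0.0101 to 0.0062 leaving out 1 sample, and the latter was −0.000497 with the longest transcript as length. The cause of these changes was not tested. The lowest count of a tubulin in any sample was 288, for Tubb6.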

Other observations

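The genes whose log2 CPM over the 6 samples, centred on its mean, was nearest to that of Tuba1a were Cnpy4, Akap8l and Parp6, with root mean square differences of 0.0217, 0.0252 and 0.0278 among 9724 genes compared. Those nearest to Tubb2b, the beta gene with the highest mean over all samples per kilobase of exon, were Egfem1 (0.0367), Plk2 (0.0437) and Eef1a1 (0.058). All 6 were higher at E18, with log2 fold changes from 0.32 for Akap8l to 0.59 for Eef1a1. That direction follows from the choice, since they were picked for likeness to members higher at E18. Eef1a1, a translation elongation factor, was the most abundant of these 6, at 6057 to 6750 CPM at E18 and 3644 to 4678 CPM at P5.

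Thy1, whose product was the target of the capture, was at 212 to 312 CPM at E18 and 469 to 690 CPM at P5 (log2 fold change −1.16, adjusted p = 0.00197). Mki67, a marker of dividing cells, was at 68.8, 16.2 and 2.84 CPM in E18 replicates 1, 3 and 4 and at 1.87, 4.17 and 0.967 CPM at P5. E18 replicate 4 was within the P5 range.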
